A study of Mus musculus with 2 samples.

Results

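The microglia and complement genes are 9 mouse genes: C1qa, C1qb and C1qc, which encode the chains of complement C1q, and Tyrobp, Trem2, Csf1r, Cx3cr1, P2ry12 and Aif1, which are widely used to mark microglia. They were chosen by name, matched to gene identifiers through GENCODE, and all 9 were found among the 43346 Ensembl genes of each library. The study measured RNA in whole forebrains of B6NCrl mouse embryos at embryonic day 14.5 by RNA sequencing, with 1 group of 2 libraries called replicate 1 and replicate 2. Per the labels the molecule is total RNA, although the linked general protocol is a Smart-seq one. The labels name no treatment and no engineered allele, and the design has no control and no other tissue. The labels give each library as 1 forebrain with its own replicate number and day of collection, yet record for both the same donor, the same numbers of pup and pregnant female, and the sex as pooled male and female, so whether the libraries come from separate embryos is not certain. The whole forebrain was taken, without sorting of cells, and 10 ng of RNA longer than 200 nt went into each library.

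Microglia are the resident macrophages of the brain. They arise from yolk sac progenitors, enter the embryonic brain before the blood-brain barrier closes, and survive there through signals from the receptor Csf1r. C1q is the recognition protein of the classical complement pathway. When it binds a target, the proteases C1r and C1s start a cascade in which C4 and C2 and later C3 are cleaved. Receptors on phagocytes read the fragments of C3, and in the postnatal mouse brain C1q and C3 are known for tagging synapses that microglia remove.

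The libraries held 35310017 and 29250404 expected counts, the authors' estimates of reads per gene, which can be fractional. Levels are given as TPM, a scale that divides by transcript length and sums to the same total in each library, so that genes can be compared. The libraries differed beyond sampling noise, with a chi-square of 28.2 per degree of freedom over 18196 genes, and were treated as separate samples. The telencephalic factors Emx1 and Dlx2 stood at 57.08 and 52.2 TPM and at 37.26 and 43.61 TPM, and the neuronal tubulin Tubb3 at 1485.57 and 1666.29 TPM in replicates 1 and 2, so these defining genes of the labelled tissue were present.

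All 9 genes were detected, which here means that TPM reached 1 in each library. Over all nuclear protein-coding genes the same rule passed 12795 of 21461, or 59.6%. The median level of the 9 genes was 12.6 TPM, with medians of 11.0 in replicate 1 and 14.3 in replicate 2, against 4.25 TPM over all nuclear protein-coding genes and 19.4 TPM over those that were detected. Together the 9 genes summed to 131 and 145 TPM. They took 3769 of the expected counts in replicate 1, a share of 0.0107% (95% Wilson interval 0.0103 to 0.011%), and 3358 in replicate 2, a share of 0.0115% (0.0111 to 0.0119%). No gene-level TPM of the 9 lay outside its deposited interval. In a whole tissue, fewer cells of a type and less RNA per cell cannot be told apart, so these are levels of the forebrain and not of microglia.

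The order of the levels was C1qb, Tyrobp, C1qa, C1qc, Csf1r, P2ry12, Aif1, Trem2 and Cx3cr1. The highest of the 9 was 18.5-fold above the lowest in replicate 1 and 11.7-fold in replicate 2. To say which levels differ, 2 genes were called separated when the deposited TPM intervals of one lay wholly above those of the other in each library; the level of confidence of these intervals is not given in the sources used here. Of the 36 pairs, 30 were separated. The 8 pairs of neighbours in the order were mostly unresolved: only C1qb over Tyrobp, C1qc over Csf1r and Csf1r over P2ry12 were separated, and the order within the other 5 was not settled. Among all nuclear protein-coding genes, 80.9% stood below C1qb, 75.0% below Tyrobp, 63.5% below Csf1r and 45.8% below Cx3cr1 in mean TPM.

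**Figure D1:**
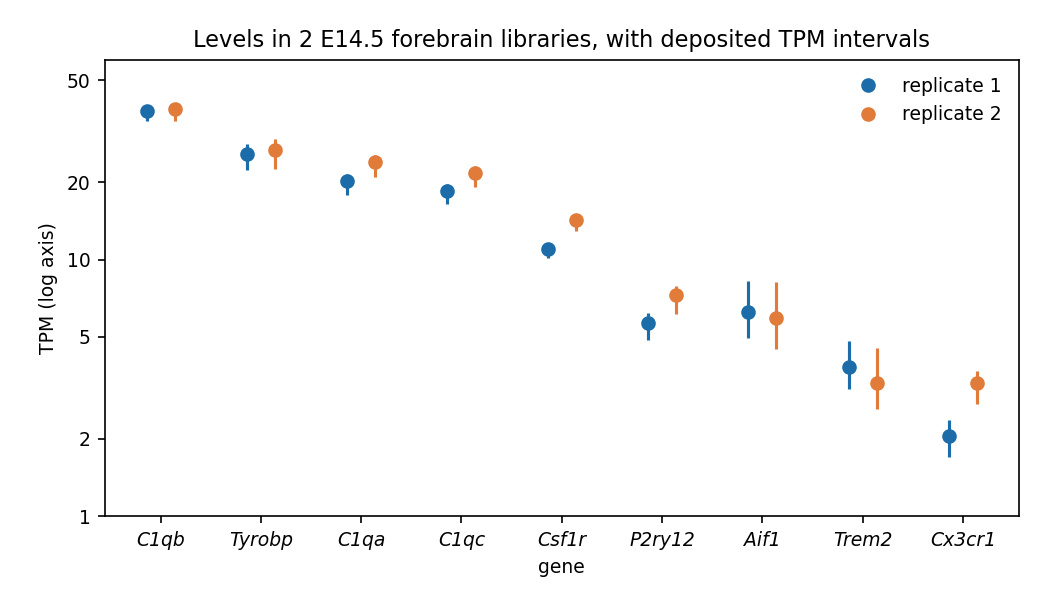
Level of each of the 9 genes in TPM on a log axis, ordered by mean. Points are the deposited TPM of replicate 1 (blue) and replicate 2 (orange), and vertical lines are the deposited TPM intervals. C1qb stands highest at 38.09 and 38.51 TPM and Cx3cr1 lowest by mean at 2.06 and 3.29 TPM.

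The chains of C1q were among the highest of the 9 genes. C1qb, the B chain (ENSMUSG00000036905, GRCm38 chr4:136880129-136886187, minus strand), had 38.09 TPM in replicate 1 and 38.51 TPM in replicate 2, a mean of 38.3 ± 0.297 TPM (SD, n = 2) from 862 and 671 counts. C1qa, the A chain (ENSMUSG00000036887, chr4:136895917-136898803, minus strand), had 20.2 and 23.95 TPM, a mean of 22.07 ± 2.652 TPM from 435 and 397 counts. C1qc, the C chain (ENSMUSG00000036896, chr4:136889804-136893065, minus strand), had 18.52 and 21.8 TPM, a mean of 20.16 ± 2.319 TPM from 468 and 424 counts. C1qb was thus the highest chain in both libraries, and C1qa and C1qc lay close together. The 3 chains summed to 76.81 and 84.26 TPM, which was 58.5% of the TPM of the 9 genes in replicate 1 and 58.1% in replicate 2.

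C1q is assembled from its A, B and C chains in equal numbers, while the transcripts were not at equal levels. The log2 ratio of TPM of C1qb over C1qa was 0.80 ± 0.16 (SD, n = 2) and that of C1qb over C1qc was 0.93 ± 0.16, and both pairs were separated. The log2 ratio of C1qa over C1qc was 0.13 ± 0.01, with intervals that overlapped in both libraries, and its sign turned to -0.1 when counts were not divided by length. C1qa and C1qc were therefore not resolved from each other.

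The 3 chain genes lie next to each other on chromosome 4, all on the minus strand, in a span of 18675 bases. In GENCODE release 21 the gap from C1qb to C1qc is 3616 bases and that from C1qc to C1qa is 2851 bases, and no other gene is annotated between them. Since these neighbours on 1 strand were all detected, the promoters of those that RefSeq's table holds with a match are shown. The letters searched were GGAAGT on both strands (ACTTCC on the other), the core bound by the ETS family to which the myeloid factor PU.1, the product of Spi1, belongs; they overlap no other motif searched. The letters stood in 7809 of 32851 promoter windows of 300 bases, or 23.8%, and in the windows of C1qb, C1qc and P2ry12 among the 6 of the 9 genes that the table holds. A match is a description of letters and not a site. The stretches below end before the first annotated exon, are written 5′ to 3′ in the direction of the gene (build GRCm38.p6, minus strand), and carry the match in capitals. In C1qb, at chr4:136886201-136886450, the match begins 53 bases before the RefSeq start. In C1qc, at chr4:136893066-136893164, it begins 195 bases before the RefSeq start.
C1qb: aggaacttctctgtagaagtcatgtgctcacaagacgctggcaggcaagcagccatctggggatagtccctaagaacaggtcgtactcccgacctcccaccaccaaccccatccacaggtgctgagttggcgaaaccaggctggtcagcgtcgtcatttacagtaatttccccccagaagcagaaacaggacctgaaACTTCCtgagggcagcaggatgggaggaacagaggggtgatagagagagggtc
C1qc: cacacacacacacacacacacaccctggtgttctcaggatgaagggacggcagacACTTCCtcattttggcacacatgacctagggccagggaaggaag

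The later steps of the cascade were far below C1q. Of 13 genes of the classical and terminal pathway other than C1q, 2 were detected, C8g (3.43 and 3.46 TPM), a chain of the terminal C8 complex, and C2 (1.13 and 1.13 TPM), the protease that C1s cleaves. The value of C2 in replicate 2 lies below its own deposited interval. C1ra, the mouse C1r, stood at 0.21 and 0.17 TPM from 13 and 8 counts, and C1s1, the mouse C1s, at 0.31 and 0.61 TPM. The log2 ratio of C1qa over C1ra was 6.86 ± 0.39 and that of C1qa over C1s1 was 5.66 ± 0.52 (SD, n = 2), and both pairs were separated. The TPM of C1s1 in replicate 1 lies below its own deposited interval of 0.354 to 1.452 TPM, so its level is uncertain and the interval reaches past the detection limit.

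C3, the component at which the complement pathways meet, had 0.59 and 0.77 TPM from 28 and 25 counts. The log2 ratio of C1qa over C3 was 5.03 ± 0.1 and that of C1qa over C2 was 4.28 ± 0.17, both separated. Hc, the mouse C5, stood at 0.57 and 0.98 TPM, while C4b (0.06 and 0.09 TPM) and its near-identical neighbour C4a (1.02 and 0.46 TPM) are uncertain, since reads of such copies can be split between them. C6, C7, C8a, C8b and C9, of the membrane attack complex, had mean TPM under 0.1 each, with at most 5 counts in a library. C9 had no count in either library, where a count of 0 allows up to 3 counts, or 0.151 TPM in replicate 1. Its deposited intervals reached higher, to 0.577 TPM in replicate 1 and 0.751 TPM in replicate 2, so its upper limit is uncertain.

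In the lectin and alternative pathways 3 of 8 genes were detected. Masp1, a protease of the lectin pathway, had 17.51 and 16.41 TPM, just under C1qc. Properdin, Cfp, had 3.66 and 4.32 TPM and the ficolin Fcna had 1.68 and 3.12 TPM, while Cfb (0.79 and 0.81 TPM) missed the detection limit and Mbl1 and Mbl2, the mannose-binding lectins, had no count. Masp2 (0 and 0.21 TPM) and Cfd (0 and 0.07 TPM) were at or near 0. Of the recognition proteins of the lectin pathway in this list, only Fcna was therefore detected, far below the C1q chains.

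The receptors that read complement fragments were low as well. Of 9 genes, 1 was detected in both libraries, Cd93 (7.05 and 7.37 TPM), once described as a C1q receptor and known from endothelium. Itgam and Itgb2, which form complement receptor 3 and recognise cleaved C3, had 0.21 and 0.36 TPM and 0.57 and 0.76 TPM. The deposited TPM of Itgam lies below its own interval in both libraries, so its level is uncertain. C3ar1, the receptor of the C3a fragment, had 1.01 and 0.90 TPM, and C5ar1, that of C5a, had 0.97 and 0.76 TPM, both at the detection limit. C5ar2 stood at 0 and 0.03 TPM, Itgax at 0.06 and 0.01 TPM, and Vsig4 had no count in either library.

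Of 15 inhibitors of complement, 11 were detected, and of the 9 inhibitors outside the neuronal Csmd and Sez6 families 5 were, against 59.6% of all nuclear protein-coding genes. Serping1, the C1 inhibitor that blocks C1r and C1s, had 27.03 and 27.24 TPM, in the range of the C1q chains. Cr1l, the membrane regulator also called Crry that limits C3 deposition on mouse cells, had 32.19 and 34.32 TPM. The largest value of this list belonged to Sez6, a neuronal protein with complement-control domains, at 116.94 and 149.79 TPM, followed by Cr1l, Sez6l2 (29.93 and 29.22 TPM), Serping1 and Sez6l (17.72 and 22.83 TPM). C4bp had no count. The summed TPM of the inhibitors was 252 and 306, or 78.0 and 87.7 without the Csmd and Sez6 families, and that of the classical and terminal genes after C1q was 7.5 and 7.81.

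**Figure D2:**
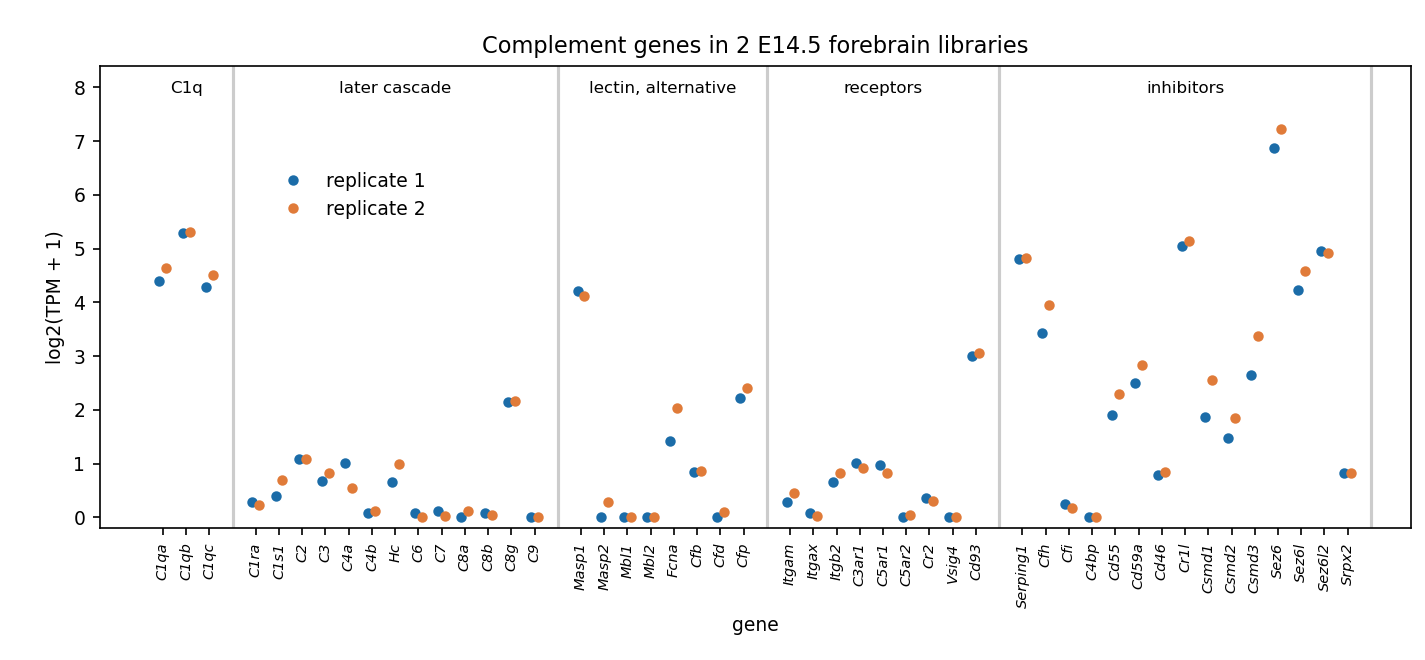
Levels of the C1q chains and of other complement genes, as log2(TPM + 1), grouped by role. Each gene has 1 point per library, replicate 1 in blue and replicate 2 in orange. The 3 C1q chains stand above every gene of the later cascade, of which 2 of 13 were detected. Of the inhibitors 11 of 15 were detected, or 5 of 9 outside the neuronal Csmd and Sez6 families. Over all nuclear protein-coding genes the share detected was 59.6%.

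The name C1q is shared by neuronal relatives that are secreted synaptic organisers and not complement proteins. Among 7 such C1q-like and cerebellin genes, 5 were detected, with Cbln2 highest at 41.4 and 45.53 TPM, followed by Cbln4 (6.3 and 10.29 TPM), Cbln1 (6.81 and 8.5 TPM), C1ql1 (2.04 and 1.65 TPM) and C1ql3 (1.48 and 1.66 TPM). C1ql4 was at 0 and 0.15 TPM. Cbln2 was the single relative that reached the level of the C1q chains.

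Tyrobp and Trem2 encode an adaptor and a receptor that signal together. Tyrobp, also known as DAP12 (ENSMUSG00000030579, chr7:30413760-30417585, plus strand), carries the activating motif of several myeloid receptors, and had 25.84 and 26.73 TPM, a mean of 26.29 ± 0.629 TPM (SD, n = 2) from 275 and 219 counts. Trem2, a lipid-sensing receptor that pairs with Tyrobp (ENSMUSG00000023992, chr17:48346401-48354147, plus strand), had 3.82 and 3.3 TPM, a mean of 3.56 ± 0.368 TPM from 96 and 62 counts. The adaptor was above its receptor in both libraries, with a log2 ratio of 2.89 ± 0.18, and the pair was separated. Tyrobp was second in the order, below C1qb by a log2 ratio of 0.54 ± 0.02, and was not separated from C1qa or C1qc, from which its interval lay apart in replicate 1 alone.

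Apoe, a lipid carrier that Trem2 binds and that radial glia and other cells also make, had 215.38 and 257.06 TPM, so the log2 ratio of Apoe over Trem2 was 6.05 ± 0.33. Clu, another lipoprotein ligand of Trem2, had 59.41 and 62.52 TPM. Syk, the kinase recruited by Tyrobp, stood at 0.85 and 0.92 TPM, below the detection limit. Hcst, another adaptor, also called DAP10, whose gene ends 126 bases from the end of Tyrobp on the opposite strand, had 0.52 and 0.17 TPM from 4 and 1 counts, and the log2 ratio of Tyrobp over Hcst was 6.47 ± 1.18. The adaptor genes thus lie side by side, with Tyrobp far above Hcst.

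Tyrobp had reads in 1 annotated transcript, while those of Trem2 were assigned to 3. Trem2-201, the usual form, held 75.73% of the gene's TPM in replicate 1 and 68.6% in replicate 2. Trem2-202 held 21.16% and 29.08% (0.81 and 0.96 TPM), and the retained intron form Trem2-203 held 3.11% and 2.33%. The deposited intervals of Trem2-202 ran from 0.127 to 1.836 TPM in replicate 1 and from 0.217 to 2.049 TPM in replicate 2, so its share is known only roughly. By annotation, Trem2-202 begins exon 4 earlier and adds 55 bases of coding sequence, chr17:48351691-48351745 on the plus strand of GRCm38. Because 55 is not a multiple of 3, the reading frame downstream differs, and the coding sequence has 249 codons in Trem2-202 and 227 in Trem2-201. The added bases, which are in Trem2-202 and not in Trem2-201, are shown in capitals, with 20 bases of transcript on either side in lower case. Whether the retained intron form Trem2-203 also holds them was not examined, so reads in these bases need not come from Trem2-202.
Trem2-202: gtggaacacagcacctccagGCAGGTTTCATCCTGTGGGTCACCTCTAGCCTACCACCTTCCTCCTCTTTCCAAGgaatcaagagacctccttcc

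Csf1r, the receptor tyrosine kinase on which microglia depend for survival (ENSMUSG00000024621, plus strand), had 11.01 TPM in replicate 1 and 14.26 TPM in replicate 2, a mean of 12.63 ± 2.298 TPM (SD, n = 2). With 1137.75 and 1076.79 counts it had the most reads of the 9 genes, over a mean transcript length of 4499 nt, and its deposited intervals were 10.11 to 11.44 and 12.93 to 14.69 TPM. It stood below the C1q chains and Tyrobp and above P2ry12, Aif1, Trem2 and Cx3cr1 in both libraries, all of these pairs being separated. The end of Csf1r overlaps Hmgxb3, a gene on the opposite strand, by 873 bases, and Hmgxb3 had 6.08 and 8.63 TPM. The sources used here do not say whether counting used the strand, and reads in that overlap cannot be assigned with certainty. The microRNA gene Mir6983 lies inside Csf1r and had no count.

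The ligands of Csf1r were both present. Csf1 had 5.82 and 5.33 TPM and Il34, the ligand that neurons make in the adult mouse forebrain, had 1.88 and 3.65 TPM. The log2 ratio of Csf1 over Il34 was 1.63 in replicate 1 and 0.55 in replicate 2, with intervals apart in replicate 1 alone, so their order is not settled. The receptor stood above both, with log2 ratios of 1.17 ± 0.35 over Csf1 and 2.26 ± 0.41 over Il34, and both pairs were separated. Csf1r thus exceeded either of its ligands per length in both libraries.

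Csf1r, at GRCm38 chr18:61100598-61132149, was also the gene whose transcript shares differed most between the libraries. Csf1r-202 held 89.5% of the gene's TPM in replicate 1 and 61.95% in replicate 2 (9.86 and 8.83 TPM). Csf1r-201 held 10.5% and 38.05%, with 1.16 TPM (interval 0.156 to 2.402) in replicate 1 and 5.43 TPM (2.981 to 7.07) in replicate 2, so that its intervals lay apart. Among the 12 transcripts of the 9 genes whose mean TPM reached 1, it was the 1 lower in replicate 1 by that rule, and 0 were higher. Over all 31182 transcripts at that level, 17.3% were lower and 3.68% were higher in replicate 1, so a share of 1 in 12 is not above the background. Both forms are annotated as protein-coding, and reads that fall in their shared exons are split between them by estimation.

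Cx3cr1, the receptor for the neuronal chemokine fractalkine (ENSMUSG00000052336, chr9:119901616-120069879, minus strand), had 2.06 TPM in replicate 1 and 3.29 TPM in replicate 2, a mean of 2.675 ± 0.870 TPM (SD, n = 2) from 155 and 189 counts. It was lower than Trem2 in replicate 1 and at the same level in replicate 2, with log2 ratios of Trem2 over Cx3cr1 of 0.89 and 0.0, so the pair at the foot of the order was not separated. Its ligand Cx3cl1 had 9.13 and 13.27 TPM, and the log2 ratio of Cx3cl1 over Cx3cr1 was 2.08 ± 0.1, with intervals apart in both libraries. Ligand and receptor were both higher in replicate 2, the more common direction. Over all genes whose mean TPM reached 1, intervals lay apart for 32.1% that were lower and 6.55% that were higher in replicate 1. Cx3cr1-202 held 60.31% and 64.24% of the gene's TPM and Cx3cr1-201 held 39.69% and 35.76%, with intervals that overlapped in both libraries. In release 21 the span of Cx3cr1 runs across neighbouring genes. The levels were counted on GENCODE M4, with 2 transcripts of Cx3cr1 against 3 in release 21. Whether the 2 counted transcripts reach the neighbours was not examined, so the overlap is one of annotation and not of counted reads. That span overlaps Wdr48, Ttc21a, 1700019L13Rik, Gm47043, Gm49427 and Gm33858 on the opposite strand and Gorasp1, Csrnp1 and Xirp1 on the same strand, of which Wdr48 (53.21 and 54.73 TPM) and Gorasp1 (20.56 and 21.36 TPM) were higher than Cx3cr1.

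P2ry12, the ADP receptor that steers microglial processes towards injured cells (ENSMUSG00000036353, chr3:59216272-59262871, minus strand), had 5.65 and 7.25 TPM, a mean of 6.45 ± 1.131 TPM (SD, n = 2) from 259 and 260 counts. It is used to tell microglia from other macrophages. P2ry13, its neighbour and relative, had 2.02 and 1.47 TPM, and the log2 ratio of P2ry12 over P2ry13 was 1.89 ± 0.58, the pair being separated. P2ry12 lies wholly inside Med12l, on the opposite strand, which had 2.01 and 4.02 TPM, and reads of the shared sequence may not be told apart. P2ry12-202 held 100% of the gene's TPM in replicate 1 and 86.12% in replicate 2, with the rest in P2ry12-201 (0 and 1.01 TPM). The deposited interval of P2ry12-201 reached up to 0.85 TPM in replicate 1 and ran from 0.286 to 2.692 TPM in replicate 2. These intervals overlap, so the difference in its share between the libraries is not resolved.

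Aif1, known as Iba1, a calcium- and actin-binding protein and the common stain for microglia (ENSMUSG00000024397, chr17:35170991-35176068, minus strand), had 6.22 and 5.94 TPM, a mean of 6.08 ± 0.198 TPM (SD, n = 2) from 81 and 59 counts. It was level with P2ry12: the log2 ratio of P2ry12 over Aif1 was -0.14 in replicate 1 and 0.29 in replicate 2, and the intervals overlapped in both. Aif1 was the gene with the lowest protein-coding share of the 9. Aif1-203, a protein-coding form, held 54.12% and 51.7% of its TPM, and Aif1-205, a retained intron form of 462 nt, held 45.88% and 46.88%. By expected counts the protein-coding share was 69.4% in place of 52.9 ± 1.64% by TPM, since the retained intron form is short. The TPM of Aif1-203 (3.37 and 3.07) lies outside its own deposited interval (upper bounds 2.97 and 2.552), and 3 further protein-coding forms had no count, so the split among forms of Aif1 is uncertain, while its gene level is inside its interval.

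Of the 22 transcripts of the 9 genes in the tables, 6 had no count in either library. C1qa, C1qb, C1qc and Tyrobp each had reads in 1 transcript, and 7 of the 9 genes had all their TPM in protein-coding forms. Trem2 had 97.2 ± 0.501% (SD, n = 2) of its TPM in protein-coding forms, or 88.2% by expected counts. Release 21 lists further forms of Csf1r, P2ry12, Tyrobp and Cx3cr1 that are not in the tables.

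**Figure D3:**
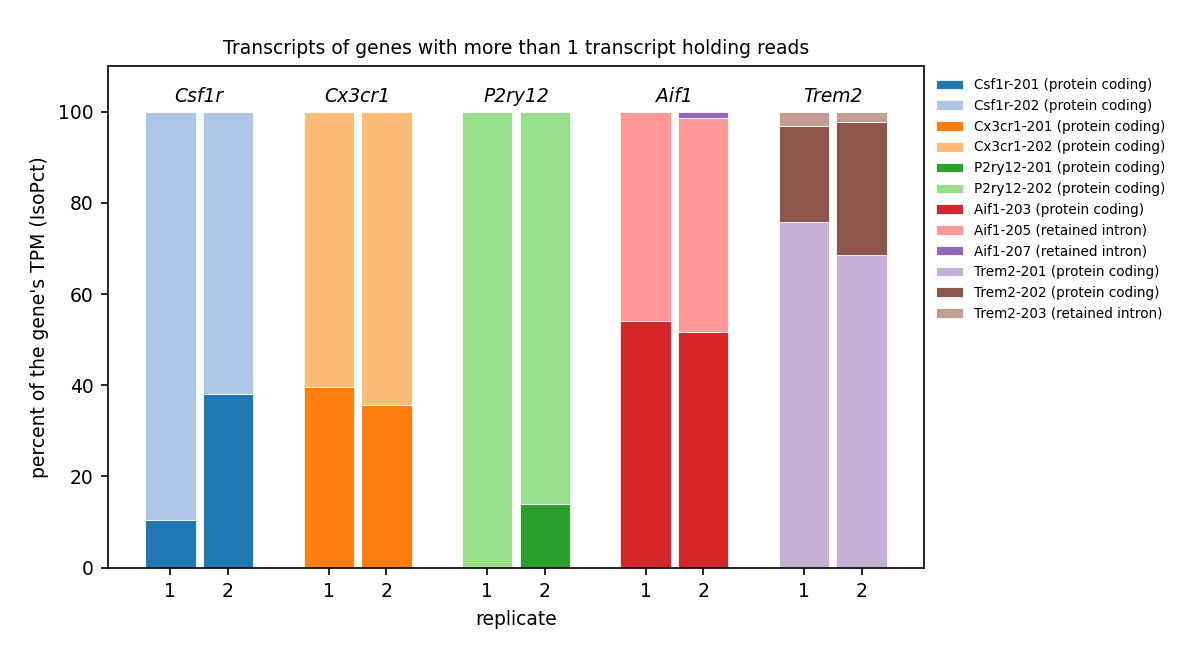
Percent of each gene's TPM held by its transcripts in replicates 1 and 2, for the 5 genes with reads in more than 1 transcript. Csf1r-201 holds 10.5% and 38.05%, and the retained intron form Aif1-205 holds 45.88% and 46.88%.

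Between the libraries none of the 9 genes differed by 2-fold or more in TPM. A gene was called different when it passed that fold and its intervals lay apart, among genes whose mean TPM reached 5. None of the 7 genes above that level was called, against 50 of 10958 genes, or 0.456%, in all, and Trem2 and Cx3cr1 fell below the level. An exact test on 2 libraries cannot give a p under 0.5, so no p-value was computed.

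On the interval rule alone, with no fold, Csf1r and Cx3cr1 were lower in replicate 1, which is 2 of 9. Over all genes whose mean TPM reached 1, 32.1% were lower and 6.55% were higher in replicate 1, so 2 of 9 lower and 0 of 9 higher is not above the background. TPM of genes at a mean of 5 or more had a median log2 ratio of replicate 1 over replicate 2 of -0.14, with the 5th and 95th percentiles at -0.6 and 0.28. The median of the 9 genes was -0.24. With library scaling by TMM the medians were -0.07 for the 9 genes and 0.02 for all genes.

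By TPM, 7 genes were lower and 2 higher in replicate 1. Relative to the median of all genes, Cx3cr1 was lowest, with a log2 ratio of -0.68, or -0.53 from that median, the single value outside the 5th to 95th percentile range, although its own mean TPM is under 5. Csf1r (-0.37) and P2ry12 (-0.36) followed, then C1qa (-0.25) and C1qc (-0.24), while C1qb (-0.02) and Tyrobp (-0.05) were near 0. Aif1 (0.07) and Trem2 (0.21) were higher in replicate 1. With TMM or DESeq2 scaling of counts C1qb and Tyrobp turned to 0.15 and 0.12 and the other 7 genes kept their sign.

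Exact intervals of the count ratios were also computed. In the ratio of expected counts per library total, the exact 95% interval excluded 0 for Cx3cr1 (log2 -0.56, from -0.87 to -0.24), P2ry12 (-0.28, from -0.53 to -0.02) and Csf1r (-0.19, from -0.31 to -0.07), and included 0 for the other 6. Over all 14653 genes whose mean TPM reached 1, this interval lay below 0 for 34.0% and above 0 for 20.3%, so 3 of 9 below and 0 of 9 above is not over the background. The interval of Trem2, from 96 and 62 counts, ran from -0.12 to 0.84, so no difference was detectable at this depth. These intervals cover counting error only.

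**Figure D4:**
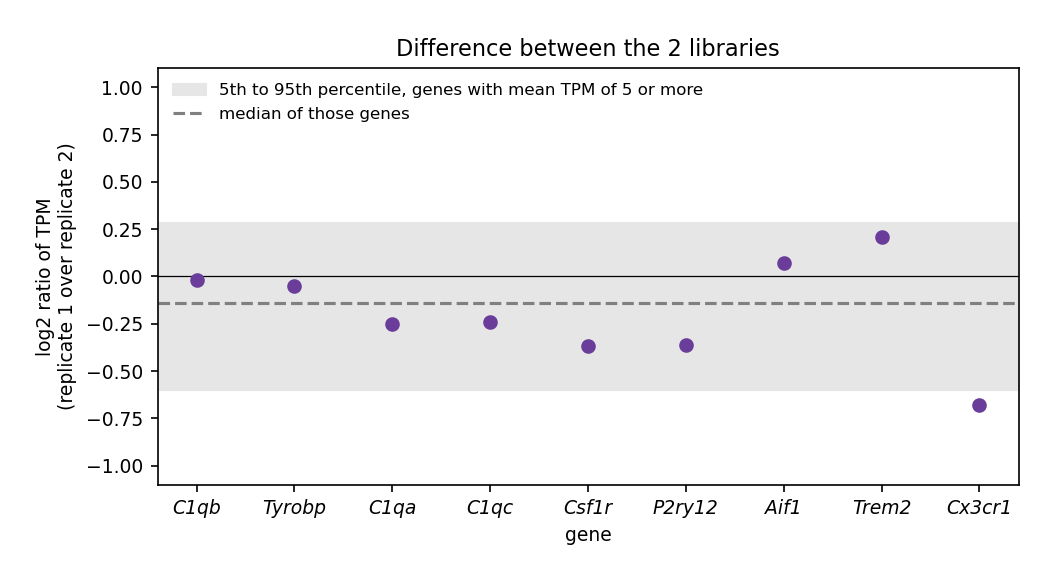
Log2 ratio of TPM, replicate 1 over replicate 2, for each of the 9 genes, with the median (dashed) and the 5th to 95th percentile range (grey) of genes whose mean TPM reached 5. Cx3cr1, at -0.68, lies below the grey range that ends at -0.6, and the other 8 genes lie within it.

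Factors of the microglial lineage were present at low levels. Of 7 genes, 4 were detected. Spi1, which encodes the myeloid factor PU.1, had 2.41 and 2.04 TPM and its partner Irf8 had 3.04 and 1.67 TPM, where the value of replicate 2 lies below its own deposited interval. The log2 ratio of Csf1r over Spi1 was 2.5 ± 0.43 and that of Csf1r over Irf8 was 2.48 ± 0.87, and both pairs were separated. Sall1, which neural progenitors also express, had 13.3 and 12.59 TPM, while Irf5 had 0.82 and 1.36 TPM. Both values of Irf5 lie below its own deposited intervals (0.988 to 2.956 and 1.447 to 4.313 TPM), so whether it passes the detection limit is uncertain.

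Other microglial markers were nearly all detected, 11 of 12, with medians of 4.32 and 4.75 TPM. The highest were Cst3 (518.28 and 466.38 TPM) and Sparc (253.95 and 306.3 TPM), which many brain cells express. The lysosomal protease Ctss had 11.97 and 12.61 TPM and the Fc receptor-like Fcrls had 10.01 and 11.8 TPM, in the range of Csf1r. Of 13 lysosomal and activation genes, 9 were detected, led by Ctsd (220.23 and 227.67 TPM), Ctsb (127.96 and 132.6 TPM), Cd9 (64.7 and 72.89 TPM), Axl (13.02 and 12.75 TPM) and Spp1 (14.11 and 9.91 TPM), while Itgax was at 0.06 and 0.01 TPM.

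Several of the 9 genes are also expressed by other macrophages, so markers of other cells that the tissue could hold are set beside them. Of 8 markers of macrophages of the brain's borders and vessels, 6 were detected, with summed levels of 69.4 and 83.8 TPM, against 131 and 145 TPM for the 9 genes. Pf4, also a platelet gene, was highest at 32.75 and 40.21 TPM, near the level of C1qb, followed by Stab1 (19.46 and 19.87 TPM), F13a1 (4.2 and 9.19 TPM), Mrc1 (4.98 and 6.12 TPM) and Lyve1 (5.14 and 4.73 TPM). Csf1r stood above Mrc1 by a log2 ratio of 1.18 ± 0.05, and the pair was separated. Cd163 was near 0, at 0.04 and 0.21 TPM. The part of border macrophages in the levels of the C1q chains, Tyrobp and Csf1r was not tested.

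Markers of monocytes and neutrophils were mostly low, with 2 of 10 detected, S100a8 (3.58 and 1.74 TPM) and S100a9 (1.69 and 2.61 TPM), and a summed level of 7.23 and 7.76 TPM. Next came Ngp (0.54 and 1.07 TPM), Camp (0.17 and 1.25 TPM) and Plac8 (0.34 and 0.27 TPM). Chil3, a macrophage and neutrophil lectin, stood at 0 and 0.19 TPM. Of 5 platelet and megakaryocyte genes, Itga2b was detected at 3.52 and 4.49 TPM, Ppbp (0.71 and 0.81 TPM), Gp9 (0.37 and 0.8 TPM) and Gp1ba (0.18 and 0.15 TPM) were low, and Gp6 had no count.

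None of the 7 lymphocyte genes was detected, with a summed level of 0.06 and 0.43 TPM. Cd3d, Cd3e, Cd8a and Ms4a1 had no count in either library, Cd79a had 0.06 and 0.04 TPM, and Cd3g, at 0 and 0.29 TPM, rested on 1 count. At the depth of these libraries a count of 0 allows 0.131 and 0.17 TPM for a transcript of 1 kb effective length. Pan-leukocyte genes were led by Coro1a (80.67 and 94.97 TPM), which neurons also express, and Laptm5 (22.27 and 26.61 TPM), while Cd52 had 1.9 and 1.09 TPM and Ptprc, the leukocyte antigen CD45, had 0.61 and 0.74 TPM, both values lying below their own deposited intervals (0.743 to 1.766 and 0.884 to 2.073 TPM).

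**Figure D5:**
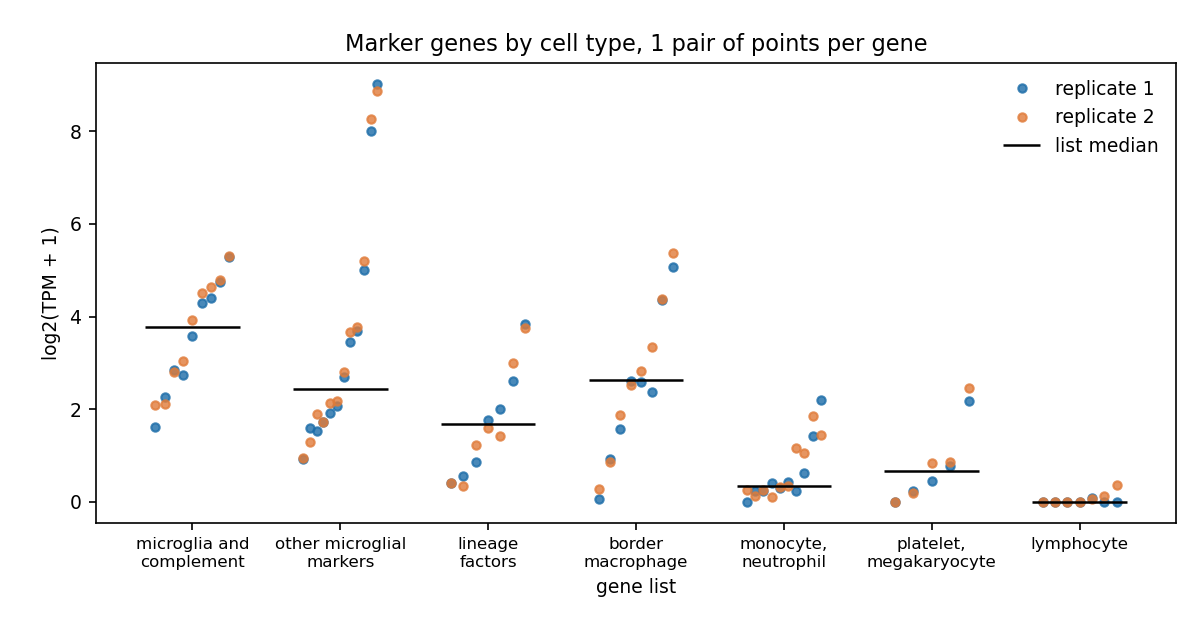
Levels of the 9 microglia and complement genes and of marker lists of other cell types, as log2(TPM + 1). Each gene has 1 point per library, replicate 1 in blue and replicate 2 in orange, and black lines are list medians of the mean. Border macrophage markers overlap the 9 genes in level, and the 7 lymphocyte genes lie at or near 0.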

How the data were processed

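RNA of embryonic mouse forebrain, called total RNA in the labels, was sequenced in 2 libraries of 1 group. Per the file headers, the deposited tables give expected counts, TPM, FPKM, posterior mean values, TPM intervals and IsoPct, for genes and transcripts. Expected counts are the authors' unscaled estimates of reads. TPM and FPKM were scaled per length by the authors, TPM to the same total in each library. The signal columns are the deposited bounds of the TPM interval, whose level is not stated. IsoPct is the deposited percent that a transcript takes of its gene's TPM. Spike-ins were added, and the linked general protocol is a Smart-seq one although the molecule is called total RNA, per the labels. Assembly mm10 and GENCODE M4 were used, per the files' notes; the aligner, counter and strand setting are not given in the sources used here.

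Gene names, transcript types and positions were taken from GENCODE M21 (GRCm38) by unversioned identifier, which named 42462 of 43346 genes (98.0%). The 9 genes, the 15 gene lists and the tests were chosen with earlier results of these data known. Named from a list were up to 5 genes with the highest mean TPM, genes with a mean TPM under 0.1, and set ligands, partners and next steps; P2ry13 and Cd163 were named after their values were seen, and some genes of the lists are counted but not reported here by name. Means and SDs are over 2 libraries; the labels do not settle whether these are separate embryos, so their spread may be technical. Intervals of shares (Wilson) and of ratios of rounded counts (exact binomial) are at 95% and, like the floor of 3 counts, cover counting error only. Library scaling used edgeR 4.0.16 (TMM) and DESeq2 1.42.0 (size factors), with no test. Alternatives were FPKM, posterior means, rescaled TPM, other thresholds and scalings, unscaled counts and each library alone. Python 3.11.15 and R 4.3.3 were used.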

Additional observations from a re-analysis of the deposited data

How the results depend on the processing

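Of 49 alternative values of 11 results, 40 stayed near the value reported and 9 moved, by over 1.5 times for a count, over 0.1 for the median log2 ratio between the libraries and over 1 SD of the libraries for other values. Part of the 40 could not have moved. Each of 2 values lies within 1 SD of their mean, and 9 genes detected in both libraries are detected in each. The C1q ratios on protein-coding transcripts were also fixed, since each chain had reads in 1 such transcript. The 40 are therefore no measure of stability. The median level of 12.6 TPM was 7.87 as FPKM and 15.3 when TPM were rescaled to nuclear protein-coding genes, both by construction of the scale. The count of 0 genes called different between the libraries became 1 (Cx3cr1) with a 1.5-fold threshold and no filter on low values, an alternative chosen after seeing the data. The median log2 ratio of the 9 genes, -0.24, was -0.07 with TMM and with DESeq2 scaling. Counts not divided by length gave log2 ratios of 0.77 for C1qb over C1qc and -0.1 for C1qa over C1qc. The protein-coding shares of Aif1 and Trem2 were 69.4% and 88.2% by expected counts. Leaving out each library in turn gave 9 detected genes both times, medians of 11.0 to 14.3 TPM, 30 to 34 separated pairs, and log2 ratios of 0.69 to 0.92 for C1qb over C1qa, 0.82 to 1.04 for C1qb over C1qc and 0.13 to 0.14 for C1qa over C1qc. The comparison between libraries has no value with 1 library. No paired analysis was possible because there is 1 group. Depth limits Aif1 and Trem2, with 59 to 96 counts each, and the genes of the later complement cascade.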
